A study of Mus musculus with 61 samples.

Results

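The guanylate-binding protein genes were followed in skeletal muscle RNA of 8 inbred mouse strains. They were the rows of the deposited count table whose symbol is Gbp followed by a number, with or without a b, each gene ID kept apart. The rule found 12 gene IDs under 11 symbols among 19462 genes, because Gbp6 stands on 2 IDs, and all 12 passed the filter on low counts. The study sequenced poly(A) RNA of skeletal muscle from the founder strains of the Diversity Outbred mouse population, all fed a high-fat, high-sugar diet labelled 45 percent fat. There were 8 libraries for each of AJ, B6, 129, NZO and WSB and 7 for each of NOD, Cast and PWK. Of the 5 classical laboratory strains, AJ, B6, 129, NOD and NZO, the last becomes obese and NOD develops autoimmune diabetes. The 3 wild-derived strains were Cast, PWK and WSB, each founded by wild mice of another subspecies. No strain was labelled as a control, no other diet was included, and sex, age and batch are not labelled. Whether each library is a different mouse is not labelled, and p-values here cover the library-to-library spread, which may be in part technical.

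Guanylate-binding proteins are large GTPases of the dynamin superfamily that cells make in response to interferons, above all interferon gamma. They assemble on the vacuoles and surfaces of intracellular bacteria and parasites, help to break them open, and bring the released bacterial products to inflammasomes. Part of the family carries a lipid anchor that is added at its C-terminal end, among them Gbp2, Gbp5 and Gbp2b, the gene long known as mouse Gbp1. Muscle fibres and the immune, vascular and stromal cells between them can all respond to interferon, and in RNA of whole tissue a change in the number of cells of a type and a change in RNA per cell cannot be told apart.

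The 12 genes lie in 2 clusters (GRCm38, GENCODE M21 gene models, whose ends equal the deposited ones for all 12). On chromosome 3, from 142493978 to 142638008 on the plus strand, stand in order Gbp5, Gbp7, Gbp3, Gbp2b and Gbp2. The other 7 stand on chromosome 5 from 105014150 to 105346472 on the minus strand: Gbp8, Gbp9, Gbp4, a first Gbp6 row (ENSMUSG00000079362), Gbp10, a second Gbp6 row (ENSMUSG00000104713) and Gbp11. GENCODE names the first Gbp6 row Gm43302 and marks its single transcript as a read-through, from 105214907 to 105293695. That model shares 1792 exonic bases with Gbp10 (105215699 to 105239533) and 1726 with the second Gbp6 row (105270702 to 105293698). It is called the read-through row here, and Gbp6 without further words is ENSMUSG00000104713. Gbp11 is a polymorphic pseudogene in GENCODE.

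Reads of 3 chromosome 5 rows are hard to tell apart. Of all runs of 100 bases in the transcripts of the read-through row, 98.81% also occur in another member, against 73.52% for Gbp10, 64.49% for Gbp6 and at most 5.13% for each of the other 9 members. The coding sequences of Gbp6 and Gbp10 are both 1833 bases long and are identical at 1803 positions (98.36%), and the read-through row's coding sequence differs from that of Gbp6 at no position of the stretch below. Over whole transcripts, 36.28% of the runs of 100 bases in Gbp6 also occur in Gbp10, and 60.06% of those in Gbp10 also occur in Gbp6. The 90 coding bases where the Gbp6 and Gbp10 models differ most are shown, with the 12 differing positions in capitals. Within the coding sequence, only reads over such places can assign a fragment to one of them. They are coding bases 1556 to 1645 of each model, written along the minus strand, at chr5:105274192-105274281 for Gbp6 and chr5:105218392-105218481 for Gbp10 (GENCODE M21 transcripts on GRCm38).
Gbp6: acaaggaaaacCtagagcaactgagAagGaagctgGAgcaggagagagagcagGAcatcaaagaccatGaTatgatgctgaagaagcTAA
Gbp10: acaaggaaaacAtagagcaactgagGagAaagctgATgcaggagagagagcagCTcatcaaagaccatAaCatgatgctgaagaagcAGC
Both sequences come from the reference genome, which derives from B6, and the alleles of the other strains at these positions were not analysed here.

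Promoters were read from RefSeq (GRCm38.p6, 250 bases before to 50 after each start) for the 5 chromosome 3 members, which all matched by symbol. They were searched on both strands for the interferon-stimulated response element (GAAA, any 2 bases, GAAA, bound by interferon-regulated factor complexes) and the gamma-activated site (TTCNNNGAA, a site of interferon gamma responses). All 5 genes hold a response element, which 3.443% of 32851 promoters of the same length do. Gbp3 holds 2 overlapping copies at its upstream start and none at its second start. Gbp5 and Gbp7 each hold 2 gamma-activated sites, which 8.298% of all promoters do at least once. The sequences of Gbp5, Gbp2b and Gbp2 are printed with both motifs in capitals, the first because it holds both kinds and the pair because the genes are neighbours with unlike patterns across strains. They lie at chr3:142496684-142496983, chr3:142594597-142594896 and chr3:142620413-142620712 on the plus strand.
Gbp5: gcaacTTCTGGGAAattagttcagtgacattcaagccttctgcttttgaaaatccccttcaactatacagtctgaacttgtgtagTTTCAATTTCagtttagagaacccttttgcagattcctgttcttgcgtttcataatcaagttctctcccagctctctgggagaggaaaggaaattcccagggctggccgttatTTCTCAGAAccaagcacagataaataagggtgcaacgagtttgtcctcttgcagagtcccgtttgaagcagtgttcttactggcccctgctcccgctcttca
Gbp2b: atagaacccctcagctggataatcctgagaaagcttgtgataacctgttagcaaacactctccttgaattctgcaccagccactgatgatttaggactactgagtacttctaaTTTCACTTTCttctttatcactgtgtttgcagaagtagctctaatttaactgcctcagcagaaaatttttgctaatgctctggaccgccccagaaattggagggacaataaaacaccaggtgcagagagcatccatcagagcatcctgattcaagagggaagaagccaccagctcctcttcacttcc
Gbp2: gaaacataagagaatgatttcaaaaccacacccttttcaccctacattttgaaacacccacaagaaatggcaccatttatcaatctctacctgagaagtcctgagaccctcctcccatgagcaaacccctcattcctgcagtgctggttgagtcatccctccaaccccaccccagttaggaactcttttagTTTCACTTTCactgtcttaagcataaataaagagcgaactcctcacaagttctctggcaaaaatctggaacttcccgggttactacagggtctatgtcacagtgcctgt
The response element reads TTTCACTTTC in both Gbp2b and Gbp2, 137 bases before the start in Gbp2b (-137) and 59 before it in Gbp2 (-59). It reads TTTCAGTTTC in Gbp7 and Gbp3 and TTTCAATTTC in Gbp5. A match to these letters is a description and shows no binding in muscle.

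Total estimated counts ran from 17.1M to 65.2M per library (median 33.7M). Levels are given as CPM, the count scaled to the size of its library, with TMM factors. The 12 skeletal muscle markers were present in every library and summed to between 126100 and 225500 CPM, Myh4 and Acta1 included. The 11 macrophage markers summed to between 81.56 and 398.2 CPM per library. The 10 lymphocyte markers summed to between 1.294 and 27.5 CPM in most libraries, but passed 30 CPM in 8 of them, with up to 159.6 CPM. These were B6 replicates 1 and 6, WSB replicates 1, 7, 8 and 9, PWK replicate 1 and Cast replicate 7. Leaving these 8 libraries out (chosen after seeing the data) left the member counts within 1.5 times, at 7 in B6, against 10, and 9 in 129 and for wild-derived against classical strains, against 11 in each. The calls it ended are given with the members or in the closing section.

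Every member was found in muscle, and every one differed among the strains. The order of levels differed between strains. As the mean of strain means divided by exonic length, the level was highest for Gbp10 at 4.88 CPM per kilobase, followed by Gbp6 at 2.45, Gbp2 at 2.20 and Gbp7 at 1.92 CPM per kilobase. Gbp8 at 0.0803 and Gbp11 at 0.126 CPM per kilobase were the lowest. Within B6, Gbp6 stood at 4.07 and Gbp10 at 3.20 CPM per kilobase, within Cast Gbp7 led at 3.69, and within PWK Gbp3 led at 2.22. Of the 12 members, 12 differed among the 8 strains in edgeR's quasi-likelihood F test (Benjamini-Hochberg adjusted p under 0.05), where 85.5% of all 16682 genes tested did. The count alone therefore says little, and the size of the differences says more. The span between the highest and the lowest strain was 3.32 log2 units in the median member, against 0.91 in the median of all genes. At least 2 log2 units were spanned by 8 of 12 members, against 19.28% of all genes, which were not matched for level. Among these 8, Gbp6, Gbp10 and the read-through row share reads. Gbp8, Gbp11 and Gbp2b, also among them, had median counts of 2.01, 7 and 13 per library, so their spans rest on few reads. Gbp2 had the smallest span at 1.07 log2 units and the read-through row the largest at 8.0. The plot of CPM by strain shows that the high and the low strains differ from member to member.

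**Figure D1:**
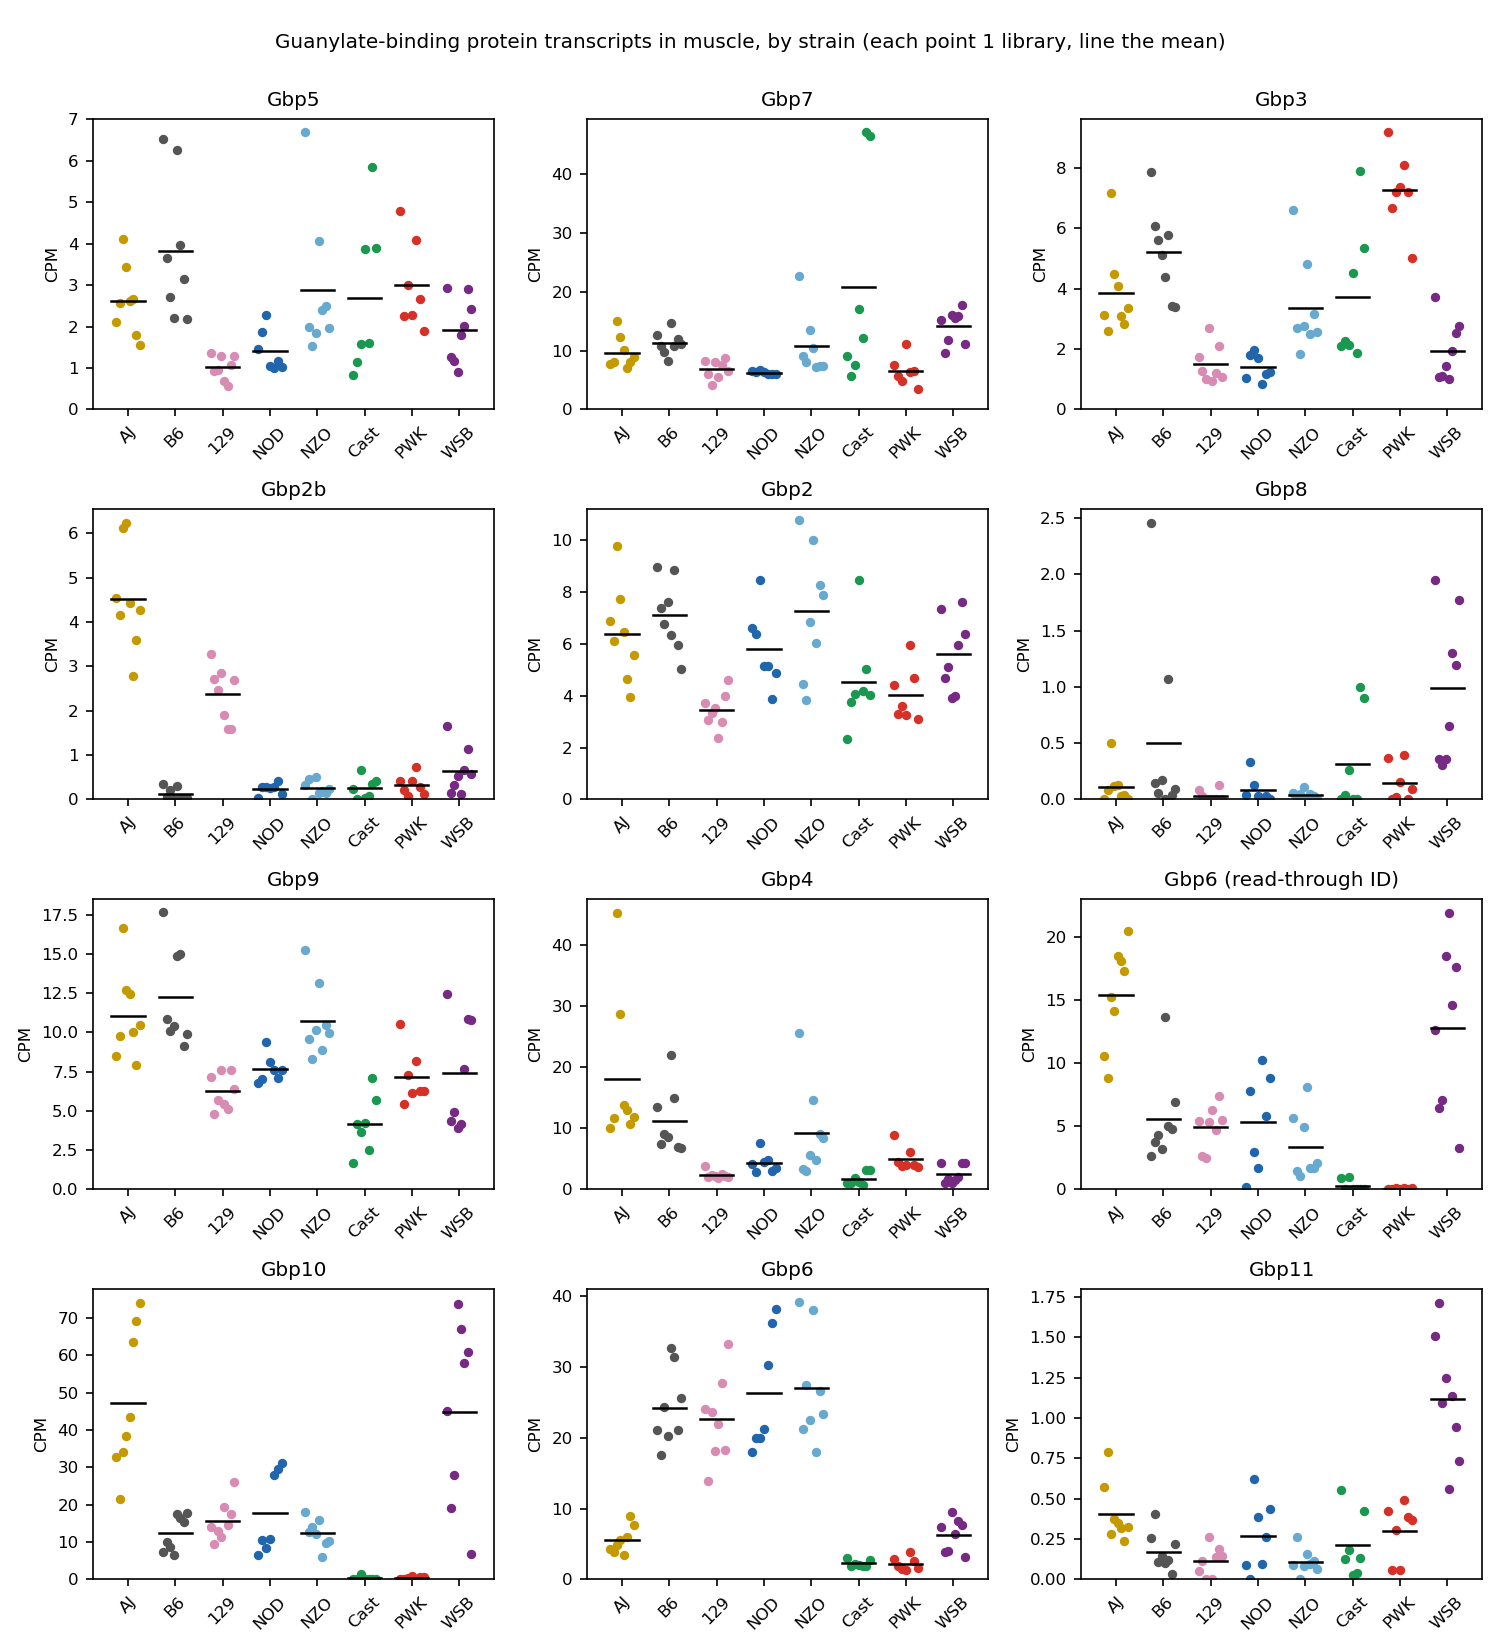
CPM of the 12 members (y axes, each from 0) in every library of the 8 strains (x axes), with a line at the strain mean. Gbp10 reaches 74.05 CPM in AJ and 73.82 CPM in WSB but stays at or below 1.55 CPM in Cast and PWK, Gbp2b stands out in AJ and 129, and Gbp3 has its highest strain mean in PWK.

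The Gbp6 and Gbp10 genes, which encode close relatives found to restrict intracellular bacteria in mouse macrophages, share reads with the read-through row. Gbp10 and the read-through row had the widest spans of all members, at 7.15 and 8.0 log2 units, while Gbp6 spanned 3.58, less than Gbp2b (5.30) and Gbp8 (4.77). Because the read-through row overlaps both, the 3 rows were first added. The sum was lowest, median and highest at 34.3, 61.7 and 102.2 CPM in AJ and at 13.3, 73.0 and 101.9 CPM in WSB. In B6 it was 29.9, 39.3 and 63.8 CPM, in 129 it was 26.0, 43.3 and 64.8 CPM, in NOD 24.9, 38.4 and 78.0 CPM, and in NZO 25.6, 38.8 and 62.8 CPM. Cast had 1.88, 2.37 and 4.79 CPM and PWK had 1.85, 2.61 and 4.27 CPM. No Cast or PWK library reached the lowest library of the other 6 strains, which was a WSB library at 13.3 CPM. Against the mean of the other 7 strains, the sum fell by 3.54 log2 units in Cast (SE 0.30, adjusted p = 2.36e-15, edgeR) and by 3.59 in PWK (SE 0.30, adjusted p = 2.4e-15).

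Cast and PWK did not pass the test against each other (0.04 log2 units, SE 0.32, adjusted p = 0.921). Each was lower than each of the other 6 strains in the direct contrasts of the sum, by 3.87 log2 units for Cast against B6, the next strain up (SE 0.33, adjusted p = 6.01e-15 for B6 minus Cast). The sum averaged 68.1 ± 24.4 CPM in AJ (SD, n = 8) and 63.9 ± 32.9 CPM in WSB (SD, n = 8), with no call between the pair (AJ minus WSB 0.09 log2 units, SE 0.27, adjusted p = 0.827). AJ was also not called against B6, 129, NOD or NZO in the sum (0.46 to 0.69 log2 units higher, adjusted p from 0.0662 to 0.288). Among all strains the sum differed with an adjusted p of 1.16e-20. The sum's calls against the other 7 strains held in every alternative that gave it a value and on leaving out any single library. How well the reads of each strain map to a reference derived from B6 was not tested.

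**Figure D2:**
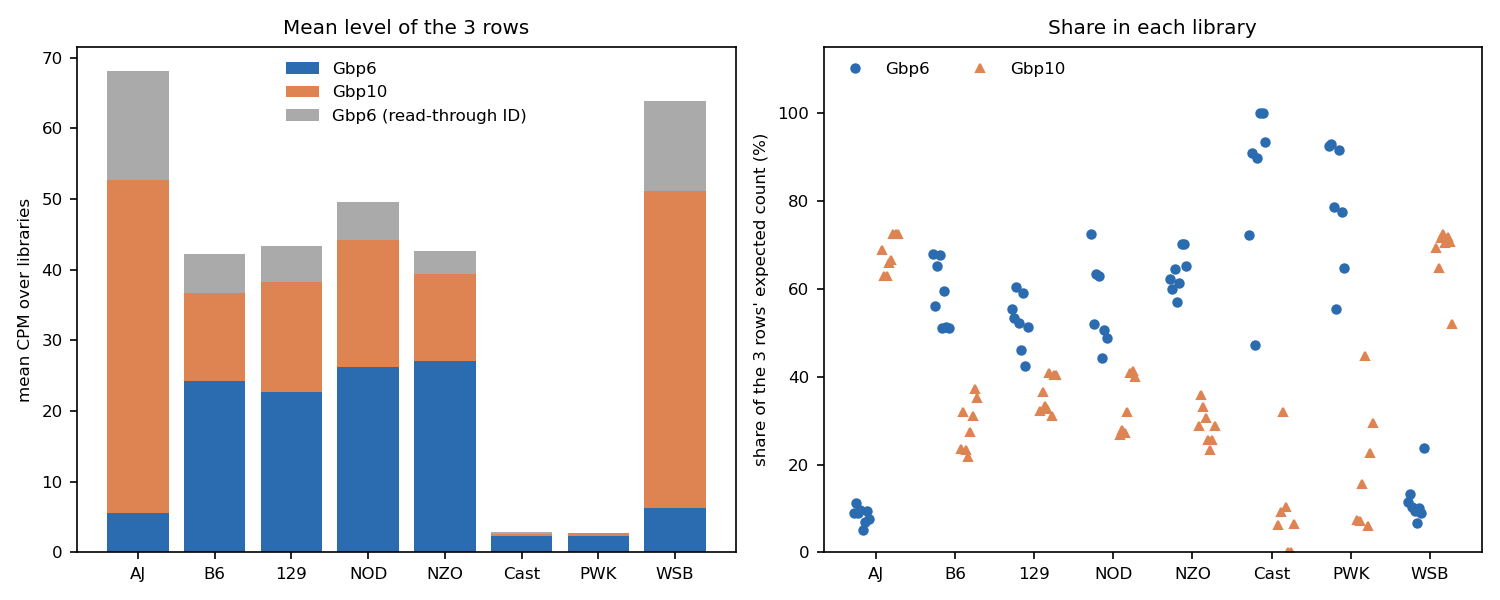
Left, mean CPM of Gbp6, Gbp10 and the read-through row by strain, stacked, so that the bar height is the mean of the sum (68.1 CPM in AJ, 2.88 CPM in Cast). Right, the share of the 3 rows' expected count held by Gbp6 (circles) and Gbp10 (triangles) in each library, with Gbp10 above Gbp6 in every AJ and WSB library and below it in every B6, 129, NOD and NZO library.

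The strains fell into sets by which of the rows held the counts. Gbp10 held 62.8 to 72.5% of the summed count in the AJ libraries and 51.9 to 72.5% in the WSB libraries. In B6, 129, NOD and NZO it held between 21.7 and 41.3%. Gbp6 held 5.21 to 11.3% in AJ and 6.79 to 23.7% in WSB, against 42.4 to 72.4% over the libraries of those 4 strains, so the shares did not overlap for either gene. In Cast the 3 rows together had 48 to 136 counts per library and in PWK 62 to 173, of which Gbp6 held 47.2 to 100% and 55.4 to 92.9%, so that shares there rest on few reads. The shares use estimated counts that the authors' counting divided between overlapping models.

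By itself, Gbp10 was lowest, median and highest at 21.6, 40.9 and 74.0 CPM in AJ and at 6.93, 51.5 and 73.8 CPM in WSB. In NOD it stood at 6.66, 10.8 and 31.1 CPM, and in B6 at 6.47, 12.7 and 17.7 CPM. It reached at most 1.55 CPM in Cast, where 2 of 7 libraries had an estimated count that rounds to 0, and 1.06 CPM in PWK. AJ and WSB thus held the high levels, although the lowest WSB library lay within the range of B6. Gbp10 was 2.96 log2 units higher in AJ than the mean of the other 7 strains (SE 0.24, adjusted p = 2.36e-15) and 2.88 higher in WSB (SE 0.24, adjusted p = 4.11e-15). It fell by 5.22 log2 units in Cast (SE 0.50, adjusted p = 2.59e-13) and by 4.61 in PWK (SE 0.48, adjusted p = 3.73e-12). AJ also exceeded NOD, B6, 129 and NZO one by one, by 1.39 to 1.94 log2 units (adjusted p at most 0.00774). The contrast averages log2 levels, so the low Cast and PWK levels pull down the mean of the other 7 strains. In CPM, Gbp10 in B6 (mean 12.4) and NZO (12.3) lay below the mean of the other 7 strain means (19.8 for each). On the log2 scale it was still called higher in B6 and NZO (0.75 and 0.74 log2 units, adjusted p = 0.0403 and 0.0382). Both calls ended with DESeq2 (adjusted p = 0.0764 and 0.0761), and that in B6 also without the lymphocyte-rich libraries (0.71, adjusted p = 0.0802). Sex is not labelled, and within strains Gbp10 correlated with Xist, the RNA of the inactive X chromosome, at r = -0.337 over 61 libraries, a description with no test. The values for the endothelial marker Pecam1 (-0.349) and for Irf1 (-0.343) were similar, so Xist did not stand out. The calls of Gbp10 and of the sum against the other 7 strains held with Xist level as a covariate.

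Gbp6 showed another order. It averaged 27.0 ± 7.73 CPM in NZO (SD, n = 8), 26.3 ± 8.47 CPM in NOD (SD, n = 7), 24.2 ± 5.40 CPM in B6 and 22.6 ± 6.06 CPM in 129 (SD, n = 8 each). The means were 6.32 ± 2.34 CPM in WSB and 5.60 ± 1.92 CPM in AJ (SD, n = 8 each), and 2.26 ± 0.44 CPM in Cast and 2.25 ± 0.94 CPM in PWK (SD, n = 7 each). The lowest library of B6, 129, NOD and NZO, at 13.9 CPM in 129, lay above the highest library of the other 4 strains, at 9.57 CPM in WSB. Neighbours within each of these 3 steps were not called apart, while 129 exceeded WSB by 1.84 log2 units (SE 0.22, adjusted p = 9.7e-10) and AJ exceeded Cast by 1.30 log2 units (SE 0.24, adjusted p = 6.2e-06). AJ and WSB were therefore low in Gbp6 and high in Gbp10, relative to B6, 129, NOD and NZO.

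The read-through row followed Gbp10. It averaged 15.4 ± 4.04 CPM in AJ and 12.7 ± 6.60 CPM in WSB (SD, n = 8 each), between 3.34 and 5.54 CPM in NZO, 129, NOD and B6, 0.271 CPM in Cast and 0.0507 CPM in PWK. Its estimated count rounded to 0 in 5 of 7 Cast libraries and in 4 of 7 PWK libraries. As deposited, the estimated counts of this row and of Gbp10 were exact whole numbers in 0 of 61 libraries, the lowest being tiny fractions above 0, so both depend on how fragments were divided. The fitted differences were 3.0 log2 units in AJ (SE 0.32, adjusted p = 4.15e-11) and -6.15 in PWK (SE 0.75, adjusted p = 6.39e-10). On the log2 scale, where Cast and PWK lower the mean of the others, it was called higher in B6, 129 and NOD (1.28, 1.13 and 1.26 log2 units). In CPM these strains averaged 5.54, 4.96 and 5.36, below the mean of the other 7 strain means (6.0, 6.1 and 6.0). The 3 calls ended with limma on the authors' variance-stabilised values (adjusted p = 0.17, 0.258 and 0.6).

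Gbp2b, a prenylated member that in mouse joins Gbp2 on parasite vacuoles, was expressed mainly in AJ and 129. AJ libraries had 2.78, 4.35 and 6.24 CPM as their lowest, median and highest values, and 129 libraries had 1.59, 2.58 and 3.28 CPM. WSB libraries had 0.118, 0.554 and 1.66 CPM. The other 5 strains had medians from 0.05 CPM in B6 to 0.281 CPM in NOD and no library above 0.741 CPM. In AJ, 7 of 8 libraries exceeded the highest library found outside AJ, a 129 library at 3.28 CPM. Gbp2b was 3.60 log2 units higher in AJ than in the mean of the other 7 strains (SE 0.28, adjusted p = 8.91e-16) and 2.55 higher in 129 (SE 0.30, adjusted p = 9.58e-10). It fell by 2.46 log2 units in B6 (SE 0.50, adjusted p = 1.22e-04), where the mean was 0.128 ± 0.138 CPM (SD, n = 8). AJ and 129 were not called apart, and 129 exceeded WSB, the next strain down, by 1.87 log2 units (SE 0.47, adjusted p = 0.00153). The calls as lower in NZO (-1.11 log2 units, adjusted p = 0.041) and in Cast (-1.10, adjusted p = 0.0309) rest on levels of at most 0.664 CPM. Both calls ended with the lymphocyte, macrophage and endothelial marker sums as covariates (adjusted p = 0.19 and 0.348) and without the lymphocyte-rich libraries (adjusted p = 0.1 and 0.0636), and that in NZO also with the replicate number as a block (-1.10, adjusted p = 0.0597).

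Gbp2, a broadly expressed prenylated member that helps to expose bacteria to the AIM2 inflammasome in mouse macrophages, varied least. It ranged from 2.37 to 4.62 CPM in 129 (median 3.44 CPM), against 3.86 to 10.8 CPM in NZO (median 7.37 CPM). The medians of the other strains lay between, and the lowest single library was in Cast at 2.32 CPM. Gbp2 was 0.50 log2 units higher in NZO than the mean of the other 7 strains (SE 0.14, adjusted p = 0.00565) and fell by 0.73 in 129 (SE 0.16, adjusted p = 3.98e-04). No strain differed from its neighbour in the order of levels. The calls as higher in B6 (0.47) and lower in PWK (-0.47) ended without the 8 lymphocyte-rich libraries (adjusted p = 0.0792 and 0.0564).

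Gbp3 was highest in PWK. Its libraries there had 5.03, 7.20 and 9.20 CPM as the lowest, median and highest values, against 3.38, 5.37 and 7.85 CPM in B6. The lowest strains were NOD with 0.841, 1.23 and 1.97 CPM and 129 with 0.952, 1.24 and 2.71 CPM. No NOD or 129 library reached the lowest PWK or B6 library. Gbp3 was 1.43 log2 units higher in PWK than the mean of the other 7 strains (SE 0.20, adjusted p = 1.48e-08) and fell by 1.29 in NOD (SE 0.25, adjusted p = 7.87e-05) and by 1.17 in 129 (SE 0.23, adjusted p = 1.06e-04). In WSB, Gbp3 fell by 0.74 log2 units (adjusted p = 0.00628) and, without the lymphocyte-rich libraries, by 1.41 (adjusted p = 1.75e-04). PWK and B6 were not called apart (0.47 log2 units, SE 0.28, adjusted p = 0.192).

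Gbp5, which in mouse takes part in inflammasome activation, was low throughout. The B6 libraries had 2.17 to 6.53 CPM (median 3.40 CPM), against 0.562 to 1.37 CPM in 129 (median 1.02 CPM), and these ranges did not overlap. Gbp5 was 0.87 log2 units higher in B6 than the mean of the other 7 strains (SE 0.22, adjusted p = 0.00187) and fell by 1.29 in 129 (SE 0.27, adjusted p = 1.49e-04). Its call as lower in NOD (-0.77 log2 units, adjusted p = 0.0323) ended with the lymphocyte, macrophage and endothelial marker sums as covariates (adjusted p = 0.611) and without the lymphocyte-rich libraries (-0.59, adjusted p = 0.0866).

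Gbp7, known in mouse macrophages for bringing oxidase and autophagy proteins to bacteria, had its highest mean in Cast, where the spread was also widest. Cast libraries had 5.67, 12.2 and 47.1 CPM as their lowest, median and highest values, and 2 of 7 exceeded the highest library found elsewhere, at 22.7 CPM in NZO. WSB libraries had 9.64, 15.4 and 17.7 CPM, so that the WSB median exceeded the Cast median. NOD libraries were tightly grouped at 5.94, 6.31 and 6.65 CPM. Against the mean of the other 7 strains, Gbp7 was 1.22 log2 units higher in Cast (SE 0.20, adjusted p = 3.93e-07) and 0.58 higher in WSB (SE 0.20, adjusted p = 0.0159). With the lymphocyte, macrophage and endothelial marker sums as covariates both calls ended, at 0.65 (adjusted p = 0.133) and 0.51 log2 units (adjusted p = 0.0594). That in WSB also ended without the lymphocyte-rich libraries (0.55, adjusted p = 0.126).

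On chromosome 5, Gbp4, which in mouse binds the interferon regulator IRF7, was highest in AJ. The AJ libraries had 10.02, 12.5 and 45.4 CPM as lowest, median and highest values, and B6 libraries had 6.82, 8.82 and 22.1 CPM. Cast had the lowest levels with 0.667, 1.2 and 3.22 CPM. Every AJ library exceeded every library of 129, NOD, Cast, PWK and WSB, and NZO and B6 overlapped with AJ. Gbp4 was 2.10 log2 units higher in AJ than the mean of the other 7 strains (SE 0.23, adjusted p = 9.48e-11) and fell by 1.72 in Cast (SE 0.34, adjusted p = 1.91e-05). Its call as higher in NZO (1.00 log2 units, adjusted p = 0.0017) ended without NZO replicate 5 (0.58, adjusted p = 0.0926). In WSB it fell by 1.13 log2 units (adjusted p = 0.00211) and by 1.99 without the lymphocyte-rich libraries (adjusted p = 3.89e-04).

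Gbp9, whose transcript starts near those of Gbp4 and Gbp8, followed a shallower order. It averaged 12.2 ± 3.14 CPM in B6 (SD, n = 8) and 4.14 ± 1.83 CPM in Cast (SD, n = 7). The 3 lowest Cast libraries were below any library of another strain. Gbp9 fell by 1.06 log2 units in Cast against the mean of the other 7 strains (SE 0.19, adjusted p = 1.97e-06) and was 0.72 higher in B6 (SE 0.15, adjusted p = 1.72e-04). The models of Gbp4, Gbp8 and Gbp9 overlap by 60 or 61 exonic bases.

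Gbp8 was close to the detection limit in most libraries. Its level in WSB was 0.306, 0.923 and 1.95 CPM (lowest, median and highest), with no library at 0. In 129, 5 of 8 libraries were at 0 and the highest had 0.128 CPM. The 4 WSB libraries rich in lymphocyte markers had 1.2 to 1.95 CPM of Gbp8 and the other 4 had 0.306 to 0.649 CPM. B6 replicates 1 and 6, which were also rich in them, had 2.46 and 1.07 CPM, against at most 0.173 CPM in the other B6 libraries. Gbp8 was 3.03 log2 units higher in WSB than the mean of the other 7 strains (SE 0.50, adjusted p = 1.97e-06), and 2.28 higher without the lymphocyte-rich libraries (adjusted p = 0.00589, chosen after seeing the data). Its call as higher in B6 (2.01 log2 units, SE 0.55, adjusted p = 0.0043) ended without them (-0.06, adjusted p = 0.978), and also without B6 replicate 1 alone (0.90, adjusted p = 0.314). Within strains, Gbp8 correlated with Ptprc, the pan-leukocyte gene CD45, at r = 0.752 over 61 libraries, a description with no test.

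**Figure D3:**
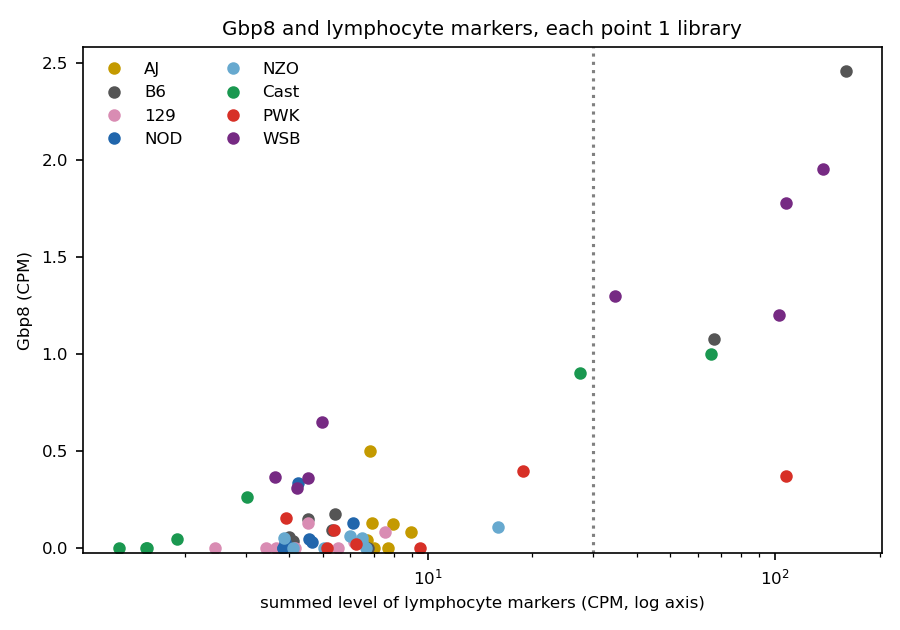
Gbp8 CPM in each library against the summed CPM of the lymphocyte markers, by strain. The 8 libraries above 30 CPM of lymphocyte markers include the highest Gbp8 libraries of B6 (2.46 CPM) and WSB (1.95 CPM).

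Gbp11 was low in every strain but WSB. WSB libraries had 0.560, 1.12 and 1.71 CPM, and 6 of 8 exceeded 0.790 CPM, the highest value elsewhere, in AJ. It was 2.41 log2 units higher in WSB than the mean of the other 7 strains (SE 0.31, adjusted p = 3.53e-09) and exceeded AJ, the next strain down, by 1.45 (SE 0.48, adjusted p = 0.0134). Its reads belong to a model that GENCODE lists as a pseudogene in the B6 reference.

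By strain, the members were counted against the mean log2 level of the other 7 strains. Gbp6, Gbp10 and the read-through row share reads, so these 3 members are not independent. All 3 were among the members higher in B6, 129 and NOD and among those lower in Cast and PWK. In B6, 129 and NOD, Gbp10 and the read-through row were called higher although their mean CPM lay below that of the other 7 strains. In B6, 9 of 12 members were higher and 1 was lower, where 15% and 11.2% of all genes were (26.2% in either direction). In 129, 4 were higher and 7 lower, where 14.2% and 11.4% of all genes were (25.6% in either direction). The member medians were 0.81 log2 units in B6 and -0.67 in 129, against 0.01 and -0.02 over all genes. With the lymphocyte, macrophage and endothelial marker sums as covariates, 8 members were called in B6 and 6 in 129. The shares of all genes given here are from the fit without these covariates. The number of all genes called in B6 and in 129 stayed within 1.5 times with them. Of 12 macrophage marker rows tested, 1 was higher and 1 lower in B6 (median -0.17 log2 units), and 0 were higher and 7 lower in 129 (median -0.56). Of 10 lymphocyte markers, 6 were higher and 0 lower in B6 and 0 higher and 1 lower in 129, with medians of 2.59 and -2.28 log2 units. Their sum in B6 reached 159.6 CPM in replicate 1 and 66.86 CPM in replicate 6. The median B6 library had 5.355 CPM, against 4.345 CPM in 129. AJ had 5 higher and 1 lower, where 16.8% and 14.9% of all genes were (31.7% in either direction). NZO had 5 higher and 2 lower, where 14.6% and 12.7% were (27.3% in either direction). WSB had 5 higher and 3 lower, where 21.4% and 17% were (38.3% in either direction). The remaining strains had fewer members higher. NOD had 3 higher and 3 lower, where 11.9% and 9.79% of all genes were (21.6% in either direction). PWK had 1 higher and 5 lower, where 20.6% and 20.3% were (41% in either direction). Cast had 1 higher and 6 lower, where 33.8% and 27.9% were (61.8% in either direction), so that the share called in Cast is near that of all genes.

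**Figure D4:**
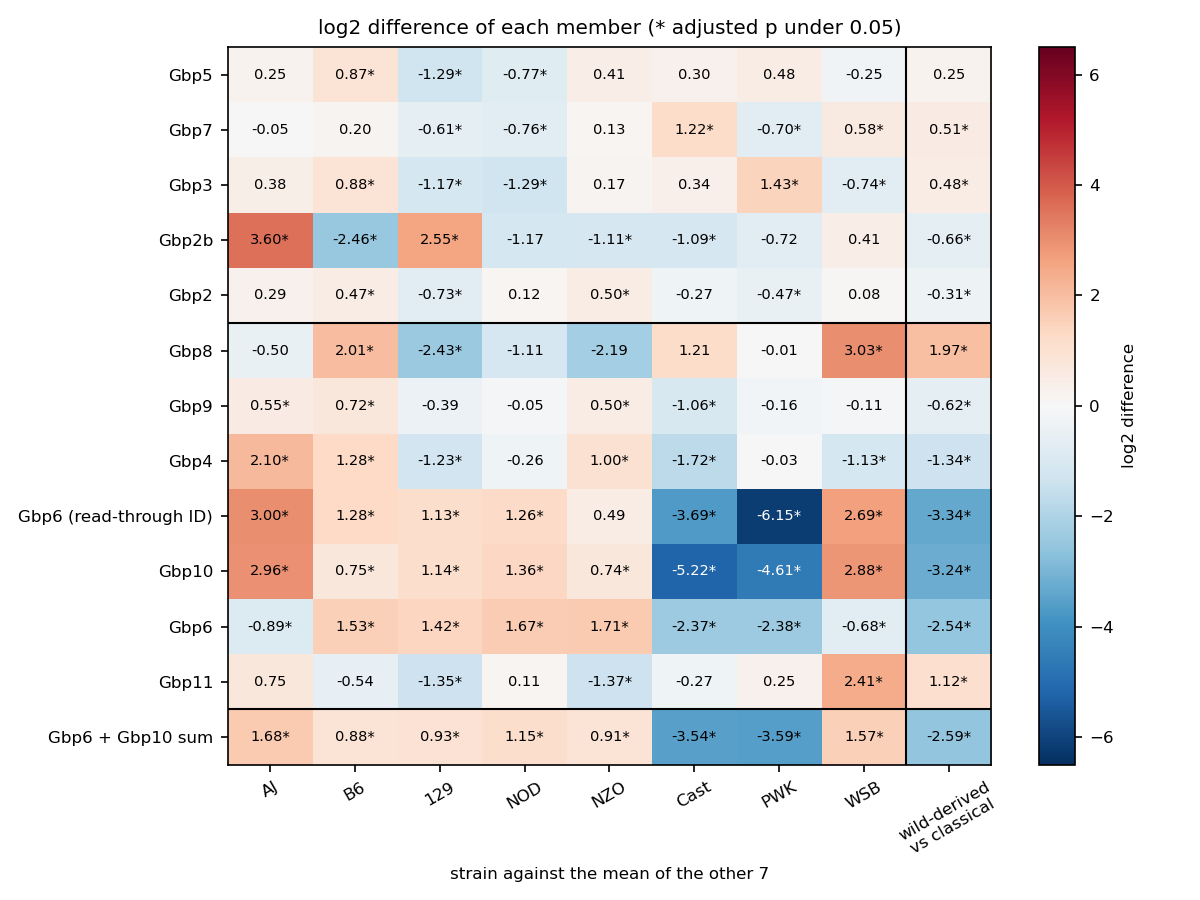
Log2 difference of each member (rows) in each strain against the mean of the other 7 strains (columns), and, in the last column, in wild-derived against classical strains, with an asterisk at an adjusted p under 0.05. Gbp10 runs from 2.96 in AJ to -5.22 in Cast, and Gbp2b from 3.60 in AJ to -2.46 in B6.

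Set together, the wild-derived strains had 4 members higher and 7 lower than the classical strains, where 32.3% and 26.5% of all genes were (58.7% in either direction). Those lower include Gbp6, Gbp10 and the read-through row, which share reads. The call of Gbp2b as lower (-0.66 log2 units, adjusted p = 0.0431) ended in 23 of 61 fits that left out 1 library. The members called higher had their highest means in different strains, Gbp8 and Gbp11 in WSB, Gbp7 in Cast and Gbp3 in PWK. The sum of the Gbp6 and Gbp10 rows had strain means of 23.2 ± 35.3 CPM in wild-derived mice (SD, n = 3 strains) and 49.2 ± 11 CPM in classical mice (SD, n = 5 strains), and the fitted difference was -2.59 log2 units (SE 0.17, adjusted p = 7.02e-20). WSB did not share it, since its sum stood with AJ. The wild-derived call of Gbp3 as higher (0.48 log2 units, adjusted p = 0.00442) ended without the lymphocyte-rich libraries (0.14, adjusted p = 0.446). Over the orders of all 12 members, 9 of 84 neighbouring strain pairs differed. The share of all genes called between strains was 18.7% for AJ against B6, 19.6% against 129, 18.4% against NOD, 18.6% against NZO, 59.3% against Cast, 38.4% against PWK and 34.7% against WSB. For B6 it was 17.1% against 129, 16.3% against NOD, 18.1% against NZO, 54.5% against Cast, 37.5% against PWK and 27.7% against WSB. For 129 it was 12.6% against NOD, 17.6% against NZO, 55.1% against Cast, 38.4% against PWK and 32% against WSB. Neighbours in a member's order are the pairs with the closest levels, so their share is not comparable with these. For NOD the share was 16.6% against NZO, 52.2% against Cast, 35.9% against PWK and 29% against WSB, and for NZO 55.5% against Cast, 37.4% against PWK and 33.9% against WSB. Among the wild-derived strains it was 51.1% for Cast against PWK, 52.8% for Cast against WSB and 38% for PWK against WSB.

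Within strains, part of the family moved together. Over the 61 libraries, with strain means removed, the 15 pairs among Gbp2, Gbp3, Gbp4, Gbp5, Gbp7 and Gbp9 had r between 0.338 and 0.813 (median 0.667). These 6 were picked from the correlations, and Gbp8 correlated with each of them at 0.387 to 0.645. Over all 66 pairs of members the range was -0.236 to 0.813 (median 0.235). Gbp6, Gbp10 and the read-through row stood apart from the first 6 but correlated with each other at 0.471 to 0.644, which overlapping models can also produce. Ptprc correlated with Gbp9 at 0.778. All these values share libraries, depth and cell content, and are descriptions with no test.

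**Figure D5:**
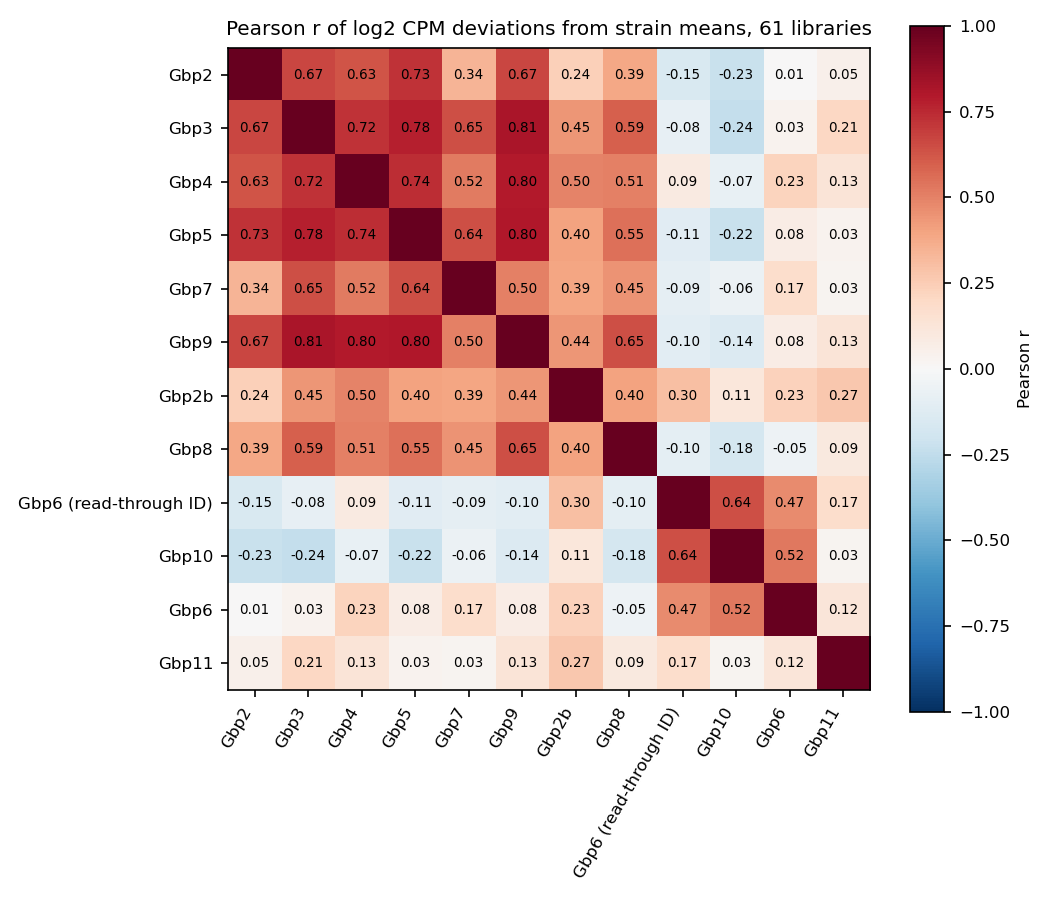
Correlation of log2 CPM between members over 61 libraries with strain means removed, as a colour scale of Pearson's r. The 6 members Gbp2, Gbp3, Gbp4, Gbp5, Gbp7 and Gbp9 correlate at 0.338 to 0.813, Gbp8 correlates with these 6 at 0.387 to 0.645, and Gbp6 and Gbp10 correlate with them at 0.225 or less.

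The genes most like each member over the 61 libraries (Pearson's r of log2 CPM, with no test) differed from member to member. Gbp5 was most like Cd274 (r = 0.801), the interferon-inducible immune checkpoint ligand PD-L1, and within strains r was 0.815. Gbp9 was most like Sp100 (r = 0.836, within strains 0.794), Gbp3 like Irgm2 (0.777, within strains 0.609), and Gbp4 like Tgtp2 (0.787, within strains 0.715), the last 2 being interferon-inducible GTPases of another family. For Gbp10 and the read-through row the closest was mt-Co2 (0.927 and 0.89), with lower values within strains (0.599 and 0.544), and for Gbp2b it was AA465934 (0.827), with 0.0106 within strains. The closest gene was Snhg18 for Gbp2 (0.746, within strains 0.499), Ttll4 for Gbp7 (0.618, within strains 0.669) and Tmem8b for Gbp6 (0.855, within strains 0.215). It was Marco, a macrophage scavenger receptor gene, for Gbp8 (0.791, within strains 0.712) and Rmdn3 for Gbp11 (0.667, within strains 0.367).

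Other genes of the interferon pathway were counted in the same fits. Of 13 immunity-related and giant inducible GTPases tested, 10 were higher and 0 lower in B6 (15% and 11.2% of all genes), with a median of 1.03 log2 units. They included Gvin1 (4.10 log2 units, SE 0.29, adjusted p = 1.1e-17) and F830016B08Rik (2.76, SE 0.21, adjusted p = 3.2e-16). In 129, 3 were higher and 7 lower (14.2% and 11.4% of all genes), with a median of -0.80, led by Gvin1 (-3.95, SE 0.57, adjusted p = 1.32e-07). Genes of this kind have close copies, so single values are uncertain. In B6, 16 of 25 genes induced by type I interferon were higher and 0 lower (median 0.69), Rsad2, an antiviral enzyme, among them (1.93, SE 0.24, adjusted p = 2.85e-09). In 129, 1 was higher and 9 lower (median -0.46), including the antiviral GTPase gene Mx1 (-2.43, SE 0.44, adjusted p = 1.63e-05). Without the lymphocyte-rich libraries, 9 of the 25 were called in B6.

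Of 17 genes of the interferon gamma signalling path, 3 were higher and 2 lower in B6 (median 0.09), where 15% and 11.2% of all genes were, and 3 higher and 6 lower in 129 (median -0.21), where 14.2% and 11.4% were. The share called in B6 is near that of all genes. Nlrc5, the activator of MHC class I genes, was 1.29 log2 units higher in B6 (SE 0.27, adjusted p = 2.02e-04) and fell by 1.93 in 129 (SE 0.36, adjusted p = 3.74e-05). Socs1, which restrains the receptor's kinases, was 2.07 log2 units higher in 129 (SE 0.44, adjusted p = 2.64e-04). In Cast, 5 of these were higher and 5 lower, where 33.8% and 27.9% of all genes were, a share near the background, with Irf8 1.45 log2 units higher (SE 0.20, adjusted p = 1.18e-08). The inducible GTPases in Cast numbered 0 higher and 5 lower of 13 (median -0.70), fewer in share than the 61.8% of all genes called there. Of the 25 genes induced by type I interferon, 5 were higher and 14 lower in Cast (median -0.47), where 33.8% and 27.9% of all genes were.

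The genes that flank the clusters spanned 1.06 to 3.08 log2 units between strains, against medians of 3.32 over the members and 0.91 over all genes. On chromosome 3, Pdlim5, 98282 bases below the cluster, spanned 1.08 log2 units between strains and Kyat3, 63043 bases above it, spanned 1.42. On chromosome 5, Lrrc8b, 69303 bases above the cluster, spanned 1.06. Abcg3, 31432 bases below it, spanned 3.08 but was low, with a highest strain mean of 1.32 CPM in WSB against 0.147 CPM in Cast, the lowest.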

How the data were processed

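The 61 poly(A) RNA libraries of skeletal muscle were made with KAPA mRNA HyperPrep reagents and ERCC spike-in, per the labels' protocols. The authors deposited expected counts per gene (80.4% of values were whole) and variance-stabilised log2 values. The build was GRCm38 and DESeq2 was named without version or role, per the submitters' processing notes. Aligner, counting tool and use of strand: not given in the sources used here. Expected counts were rounded and tested with edgeR 4.0.16 (R 4.3.3): filterByExpr by strain, TMM, 1 quasi-likelihood fit with a strain term over 61 libraries, and Benjamini-Hochberg adjustment over 16682 genes at a threshold of 0.05. Each strain was set against the mean of the other 7 coefficients, which are log levels. A strain can thus be called higher with a mean CPM below that of the others. The SE of a log2 difference is its size divided by the square root of F. For the sum, the 3 rows named Gbp6 or Gbp10 were replaced by their total. Totals per library ran from 17.1M to 65.2M. The fit was tested on simulated data. DESeq2 1.42.0, limma 3.58.1 on the deposited log2 values, other filters and scalings, covariates and left-out libraries were the alternatives. Members, gene lists and the named-gene rule (all members; up to 3 called list genes at each end; the 3 genes most correlated with a member) were chosen with earlier results of these data known. The cut-off of 30 CPM for lymphocyte markers was set after the levels were seen. The values of 1 list gene are not reported here.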

Additional observations from a re-analysis of the deposited data

Results flagged for a closer look

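In 9 of 104 groups of 7 or 8 libraries, 1 library lay apart from the rest by Dixon's criterion. Chance gives this in about 1 in 20 groups only if values are normally distributed. The criterion was applied to CPM without a log transform, and normality was not tested. The groups include the sum of the Gbp6 and Gbp10 rows beside those rows, so they are not independent. Each of the 9 was a high value. Gbp7 was at 22.7 CPM in NZO replicate 5, with the nearest NZO library at 13.5 CPM. AJ replicate 3 stood out for Gbp3 at 7.19 CPM (nearest 4.48 CPM) and for Gbp8 at 0.498 CPM (nearest 0.126 CPM). Gbp8 was also apart in B6 replicate 1 at 2.46 CPM (nearest 1.07 CPM) and in NOD replicate 2 at 0.334 CPM (nearest 0.125 CPM). Gbp4 reached 3.91 CPM in 129 replicate 1 (nearest 2.53 CPM) and 7.68 CPM in NOD replicate 3 (nearest 4.82 CPM). The read-through row (Gbp6, ENSMUSG00000079362) was at 13.6 CPM in B6 replicate 5 (nearest 6.95 CPM), and Gbp10 was at 1.55 CPM in Cast replicate 3 (nearest 0.25 CPM).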

How the results depend on the processing

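The calls of the Gbp6 and Gbp10 sum kept their direction and side of the threshold in every alternative that gave it a value. With lymphocyte, macrophage and endothelial marker sums as covariates, 6 members were called in 129 and 3 in NOD, against 11 and 6 in the reported fit. The number of all genes called in 129 and in NOD stayed within 1.5 times. With limma, 7 were called in 129. Leaving out 1 library at a time gave 3 to 8 members in NZO, against 7, the lowest without NZO replicate 5. Neighbouring pairs that differed numbered 15 with those covariates and 15 without the 8 lymphocyte-rich libraries, against 9. The covariates left 2526 genes called in AJ, 2448 in NZO and 6145 in Cast, and leaving out the lymphocyte-rich libraries left 4058 in WSB. Of the lists, inflammasome genes called among strains numbered 4 under the strict filter, interferon gamma genes 3 in B6 with limma and 3 without the lymphocyte-rich libraries, and 5 in 129 with the covariates. Type I genes numbered 9 in B6 without those libraries and 5 in 129 with the covariates. Gbp8 in B6 reversed to -0.0638 without those libraries (adjusted p = 0.978). The cause of these shifts was not tested. Over 186 pairs of libraries with the same replicate number in different strains, deviations from strain means had a median r of 0.0108. The range was -0.563 to 0.655, with r over 0.1 in 72. Pairs with different numbers were not compared, so whether the number marks a shared deviation was not tested. A fit with the replicate number as a block ended 3 member calls: Gbp8 in B6 (1.66 log2 units, adjusted p = 0.0553), Gbp2b in NZO (-1.1, 0.0597) and Gbp7 in 129 (-0.525, 0.0559). Without the lymphocyte-rich libraries, Gbp7 in 129 (-0.542, adjusted p = 0.0614), Gbp7 in wild-derived strains (0.352, 0.0585) and Gbp8 in 129 (-1.76, 0.115) also lost their calls. Another scaling moved the median of all genes by at most 0.0154 log2 units. The median count of Gbp8 was 2.01 and of Gbp11 7 per library, so their levels rest on few reads.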
